A study of Mus musculus with 12 samples.

Results

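The 10 genes described here encode the core of TGF-beta signalling: the ligand gene Tgfb1, the receptor genes Tgfbr1 and Tgfbr2, the receptor-activated SMAD genes Smad2 and Smad3, the common SMAD gene Smad4, the inhibitory SMAD gene Smad7, the corepressor genes Tgif1 and Skil, and Tgfbi, a matrix protein gene named for its induction by the ligand. They were chosen by symbol from a table of 55401 genes, and all 10 were found there. All 10 also passed the filter on low values (3 or more libraries with 10 or more normalized counts), which left 13369 genes to test.

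RNA-seq was read from 12 libraries of bone-marrow-derived macrophages (BMDMs), cells grown out of marrow with the growth factor M-CSF, here 20 nM for 7 days. All donors were C57BL/6J mice with the genotype Irx3-/-, and every library was taken after 4 h with 100 ng/ml LPS, the bacterial lipopolysaccharide that activates Toll-like receptor 4. The 4 groups, of 3 libraries each, differed in what an adeno-associated virus had delivered: IRX3_S389A, IRX3_S361A, IRX3_WT or GFP. IRX3, an Iroquois-family protein, binds DNA through a homeodomain, and in the usual notation the first 2 constructs carry alanine in place of a serine. Macrophages without LPS, and macrophages with their own Irx3, are not among these libraries, so each difference below is between constructs in Irx3-deleted cells under LPS. The labels do not say whether libraries of a group came from separate mice or cultures, so p-values measure the spread between libraries only.

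In this pathway TGF-beta is secreted in a latent form, and integrins or proteases release it. The released ligand binds TGFBR2, which phosphorylates TGFBR1. TGFBR1 then phosphorylates SMAD2 and SMAD3, which join SMAD4 and enter the nucleus. SMAD7 binds the active receptor and ends the signal, while SKIL (also called SnoN) and TGIF1 hold back transcription by the SMAD complex. In macrophages the pathway is known for restraining inflammatory responses and for its part in the identity of resident macrophages such as microglia.

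The stretches just before the start sites of Tgfbr1, Tgfbr2, Smad3, Tgif1 and Tgfbi are shown because, of the 6 members with an entry, these 5 had the smallest p in the test of any difference among the groups (Tgfb1 is the other). They come from RefSeq on the GRCm38.p6 build and are written 5′ to 3′ on the strand of the gene. Of the 10 members, 6 matched an entry. Capitals mark the SMAD box CAGAC on either strand (GTCTG where it lies on the other strand).
Tgfbr1, chr4:47352972-47353221, plus strand: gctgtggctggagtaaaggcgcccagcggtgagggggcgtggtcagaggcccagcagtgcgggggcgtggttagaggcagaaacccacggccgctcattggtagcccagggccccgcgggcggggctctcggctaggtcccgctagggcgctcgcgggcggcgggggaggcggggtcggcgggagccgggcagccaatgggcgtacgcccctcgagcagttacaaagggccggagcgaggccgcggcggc
Tgfbr2, chr9:116175364-116175613, minus strand: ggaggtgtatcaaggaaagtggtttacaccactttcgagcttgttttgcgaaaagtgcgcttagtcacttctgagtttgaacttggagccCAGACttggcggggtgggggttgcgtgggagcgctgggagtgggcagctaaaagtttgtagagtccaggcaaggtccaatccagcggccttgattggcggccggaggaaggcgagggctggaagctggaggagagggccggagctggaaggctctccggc
Smad3, chr9:63757995-63758244, minus strand: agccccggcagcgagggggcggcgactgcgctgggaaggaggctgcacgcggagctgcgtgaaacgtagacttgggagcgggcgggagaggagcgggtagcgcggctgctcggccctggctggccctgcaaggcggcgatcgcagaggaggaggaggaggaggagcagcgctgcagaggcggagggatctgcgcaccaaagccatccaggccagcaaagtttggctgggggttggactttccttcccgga
Tgif1, chr17:70853547-70853782, minus strand: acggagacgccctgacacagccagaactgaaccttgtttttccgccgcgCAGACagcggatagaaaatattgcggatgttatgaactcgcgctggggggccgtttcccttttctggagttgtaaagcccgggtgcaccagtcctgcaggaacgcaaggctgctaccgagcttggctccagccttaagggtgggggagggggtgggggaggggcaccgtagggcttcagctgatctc
Tgfbi, chr13:56609336-56609522, plus strand: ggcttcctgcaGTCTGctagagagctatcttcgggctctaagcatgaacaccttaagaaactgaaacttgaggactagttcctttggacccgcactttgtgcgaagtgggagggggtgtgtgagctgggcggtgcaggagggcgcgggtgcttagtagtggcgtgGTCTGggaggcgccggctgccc

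The 250 bases before the RefSeq start of Tgfbr1 had 74.8% G and C and 29 CpG dinucleotides, and those of Smad3 had 69.2% and 22. The median over 32851 mouse promoters of this length was 52.4% G and C with 6 CpG. The Tgfbr2 stretch (58.4%, 12 CpG) holds 1 SMAD box, the Tgif1 stretch shown holds 1, the Tgfbi stretch holds 2, and the Tgfbr1 and Smad3 stretches shown hold none, in a setting where 42.2% of all such promoters hold at least 1. The Iroquois site ACANNTGT and the AP-1 site TGANTCA, both palindromes searched on both strands, were in none of the stretches shown, and 6.31% and 6.75% of all promoters hold them. RefSeq gives Tgif1 5 starts, and 3 of their stretches hold a SMAD box. One of these, chr17:70851735-70851984, also holds an Iroquois match, 164 to 157 bases before its start, the only one in the 11 stretches of the 6 members. A match is only a string of letters. A missing match says only that the letters are not in the window.

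Deposited totals ran from 17325311 to 19796325 normalized counts per library, a normalized count being a gene count divided by the size factor of its library, and 18226 to 18750 genes were above 0. Irx3 had 165 to 203 normalized counts in IRX3_S389A libraries, 324 to 364 in IRX3_S361A libraries and 165 to 196 in IRX3_WT libraries, and 0 in all 3 GFP libraries (means of 187, 349 and 177 with IRX3). The part of the higher Irx3 level of IRX3_S361A libraries in the differences below was not tested. All 9 macrophage markers were tested and summed to 361388 to 430712 normalized counts. Of the 8 fibroblast or stromal markers 4 passed the filter; the list summed to 211 to 226 in IRX3_S389A libraries, 143 to 222 in IRX3_S361A libraries, 246 to 263 in IRX3_WT libraries and 92.1 to 135 in GFP libraries. Most of it was Pdgfrb, while Col1a1 stayed at or under 11.1 in every library. Of the 5 megakaryocyte or platelet markers 2 passed; the list summed to 3385 to 3587, 3529 to 3726, 4133 to 4354 and 2576 to 3085 in the same order of groups, nearly all from Pf4, with Gp1bb at 0 throughout. Neutrophil markers summed to 25.8 to 63.3 with Ly6g, Mpo and Elane at 0 in all libraries, dendritic cell markers to 117 to 177, and lymphoid, mast cell and erythroid markers to 13.1 at most. The stromal and platelet sums, carried by Pdgfrb and Pf4, move with the constructs as several members do. Other markers of these lists did not all follow. Col1a1, Col1a2 and Postn had their lowest means in IRX3_WT cells (4.90, 6.29 and 7.47), and Pdgfra its highest (2.09). Itga2b and Gp9 had means up to 3.72, and Ppbp means of 32.5 to 39.0. The part of these sums in the results was not tested.

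Levels were also taken per kilobase of exon, so that genes can be compared roughly with each other. The length used is that of all annotated exons of a gene joined, not of the transcripts expressed. The part of that choice in close ranks was not tested. On this scale Tgfb1 and Tgfbi stood highest, with means of 1349 and 1348 normalized counts per kb in IRX3_S389A cells and 1367 and 1374 in IRX3_S361A cells. Their means were 1325 and 1059 in IRX3_WT cells, and 1189 and 1344 in GFP cells. Their ranges overlapped in IRX3_S389A and IRX3_S361A cells, Tgfb1 was the higher in IRX3_WT cells, and Tgfbi was the higher in GFP cells. Skil came next at group means of 507 to 638 per kb. Smad4, Tgfbr2 and Tgif1 followed at 241 to 356 per kb and changed places between constructs. In IRX3_WT cells Tgfbr2 was the lowest of these 3, below both Tgif1 and Smad4, which overlapped, whereas in GFP cells it was the highest, above Smad4 with no overlap. Tgfbr1 lay at 169 to 231 and Smad2 at 108 to 114 per kb. Smad7 (8.93 to 19.2) and Smad3 (5.76 to 14.9) were the lowest in all 4 groups, so that SMAD2 RNA outnumbered SMAD3 RNA per kb in each library. By recovered reads, Smad3 rested on 25 to 91 and Smad7 on 34 to 104 reads per library, and their error is accordingly wider than that of the other 8.

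**Figure D1:**
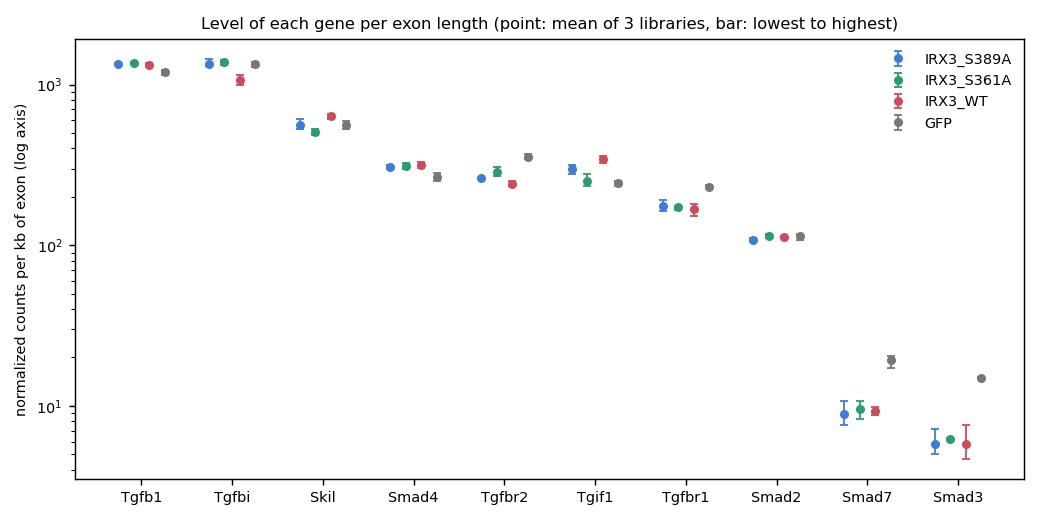
Normalized counts per kb of exon (log axis) for each gene, ordered by its mean over the groups; points are means of 3 libraries in IRX3_S389A, IRX3_S361A, IRX3_WT and GFP cells, and bars run from the lowest to the highest library. Tgfb1 and Tgfbi have group means of 1059 to 1374 per kb, and Smad7 and Smad3 of 5.76 to 19.2 per kb.

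Against GFP, 7 of the 10 members passed the test with IRX3_S389A (3 higher, 4 lower), where 35.0% of all tested genes passed (18.8% higher, 16.2% lower). With IRX3_S361A 7 of 10 passed (2 higher, 5 lower), against 25.9% of all tested genes (14.9% higher, 10.9% lower). With IRX3_WT 9 of 10 passed (4 higher, 5 lower), against 39.6% of all tested genes (21.0% higher, 18.6% lower). The members' median log2 differences were -0.036, -0.066 and -0.17, and those of all tested genes -0.0061, 0.0041 and -0.0055, in the same order. Between IRX3 constructs fewer passed: 1 of 10 for IRX3_S389A against IRX3_S361A (1 higher; 10.2% of all tested genes, 7.00% higher and 3.16% lower), 3 of 10 for IRX3_S389A against IRX3_WT (1 higher, 2 lower; 15.3% of all, 8.21% higher and 7.08% lower) and 4 of 10 for IRX3_S361A against IRX3_WT (2 higher, 2 lower; 15.5% of all, 6.43% higher and 9.07% lower). With libraries set to equal total counts, 7 members passed against GFP with IRX3_S389A (0 higher, 7 lower), 6 with IRX3_S361A (1 higher, 5 lower) and 7 with IRX3_WT (1 higher, 6 lower). Over all 13369 tested genes that scaling called 1334 higher and 5397 lower, 1047 and 3226, and 1395 and 5519, in the same order. Between constructs, equal totals gave 2 for IRX3_S389A against IRX3_S361A (1 higher, 1 lower), 3 for IRX3_S389A against IRX3_WT (1 higher, 2 lower) and 5 for IRX3_S361A against IRX3_WT (3 higher, 2 lower). Over all tested genes these were 597 higher and 1053 lower, 1171 and 874, and 1805 and 754. In the comparisons between constructs as deposited, the median log2 differences of members and of all genes were -0.023 and -0.0023, -0.023 and 0.00030, and 0.026 and 0.0074. The test was limma on log2(normalized count + 1), with a threshold of 0.05 on the p adjusted over all tested genes. In the test of any difference among the 4 groups 9 of 10 passed, all but Smad2, against 44.2% of all tested genes. The comparisons share libraries, those with GFP as well as those among IRX3 constructs, so they are not independent of each other.

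The ligand gene Tgfb1 (7:25687002-25705077, plus strand, mm10) had 6868, 6727 and 6815 normalized counts in IRX3_S389A libraries, 6974, 6806 and 6904 in IRX3_S361A libraries, and 6604, 6814 and 6624 in IRX3_WT libraries, against 5808, 6009 and 6173 in GFP libraries. Every IRX3 library was above every GFP library, and the 3 IRX3 groups overlapped. Against GFP, Tgfb1 rose by a log2 difference of 0.18 with IRX3_S389A, 0.20 with IRX3_S361A and 0.16 with IRX3_WT (SE 0.035 each; limma, Benjamini-Hochberg adjusted p = 6.75e-05, 2.23e-05 and 0.000451). These rises are small, and they depend on the scaling: with libraries set to equal totals, which moves the median of all genes to -0.17, -0.11 and -0.18 in these comparisons, the Tgfb1 difference was 0.013 with IRX3_S389A (adjusted p = 0.775) and -0.021 with IRX3_WT (adjusted p = 0.647), and with IRX3_S361A it still passed (highest adjusted p over the alternatives 0.0474). Between IRX3 constructs the differences of Tgfb1 were 0.046 or less in size, with 95% intervals inside -0.091 to 0.12. With equal totals IRX3_S361A was called higher than IRX3_WT, at 0.11 (adjusted p = 0.0224).

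Tgfbr1 and Tgfbr2, the genes of the signalling receptor pair, were both lower with all 3 IRX3 constructs. Tgfbr2 (9:116084293-116175360, minus strand), the ligand-binding partner, had 2149, 2147 and 2151 normalized counts in IRX3_S389A libraries, 2511, 2194 and 2325 in IRX3_S361A libraries, 1938, 2064 and 1914 in IRX3_WT libraries, and 2935, 2805 and 3012 in GFP libraries. GFP libraries were the highest without overlap, IRX3_WT libraries the lowest without overlap, and the 2 mutant constructs lay between them, IRX3_S361A above IRX3_S389A. Against GFP, Tgfbr2 fell, with log2 differences of -0.44 with IRX3_S389A, -0.32 with IRX3_S361A and -0.57 with IRX3_WT (SE 0.048 each; limma adjusted p = 9.03e-10, 1.55e-06 and 1.39e-12), so that the IRX3_WT mean was 0.676 of the GFP mean. The difference between IRX3_S361A and IRX3_WT was itself past the threshold, at 0.25 (adjusted p = 0.000211). IRX3_S389A differed from IRX3_WT by 0.12 (adjusted p = 0.0720) and from IRX3_S361A by -0.12 (adjusted p = 0.101), which did not pass although the libraries did not overlap. Without IRX3_S361A replicate 1 or IRX3_WT replicate 2 the first of these passed (adjusted p = 0.0483 and 0.0343), and without IRX3_S361A replicate 2 the second did (0.0339). With equal totals the second also passed, at -0.18 (0.00986). In bulk RNA, fewer cells with the receptor and less receptor RNA per cell cannot be told apart.

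Tgfbr1 (4:47353222-47414931, plus strand), the kinase that phosphorylates SMAD2 and SMAD3, had 1135, 1063 and 1247 normalized counts in IRX3_S389A libraries, 1082, 1133 and 1150 in IRX3_S361A libraries, 1180, 999 and 1126 in IRX3_WT libraries, and 1547, 1483 and 1502 in GFP libraries. All 9 IRX3 libraries were below the GFP libraries, and the IRX3 groups overlapped one another. The log2 differences from GFP were -0.40, -0.43 and -0.46 with IRX3_S389A, IRX3_S361A and IRX3_WT (SE 0.060 each), and all passed (limma adjusted p = 1.07e-06, 4.26e-07 and 5.73e-08). Unlike Tgfbr2, Tgfbr1 gave no call between IRX3 constructs: its differences were 0.031 for IRX3_S389A against IRX3_S361A, 0.060 for IRX3_S389A against IRX3_WT and 0.029 for IRX3_S361A against IRX3_WT, with 95% intervals inside -0.093 to 0.18.

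The ratio of ligand to receptor reads inside a library does not depend on how libraries are scaled. Tgfb1 counts were 3.17 ± 0.032 times Tgfbr2 counts in IRX3_S389A libraries, 2.95 ± 0.16 times in IRX3_S361A libraries, 3.39 ± 0.082 times in IRX3_WT libraries and 2.06 ± 0.082 times in GFP libraries (mean ± SD, n = 3 each). The ratio of Tgfb1 to Tgfbr1 was 5.95 ± 0.44, 6.15 ± 0.25, 6.10 ± 0.64 and 3.97 ± 0.19 in the same order of groups. GFP libraries lay below all others in both ratios, without overlap. The ratio of Tgfbr2 to Tgfbr1 was 1.88 ± 0.15, 2.09 ± 0.20, 1.80 ± 0.23 and 1.93 ± 0.064, and its groups overlapped.

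**Figure D2:**
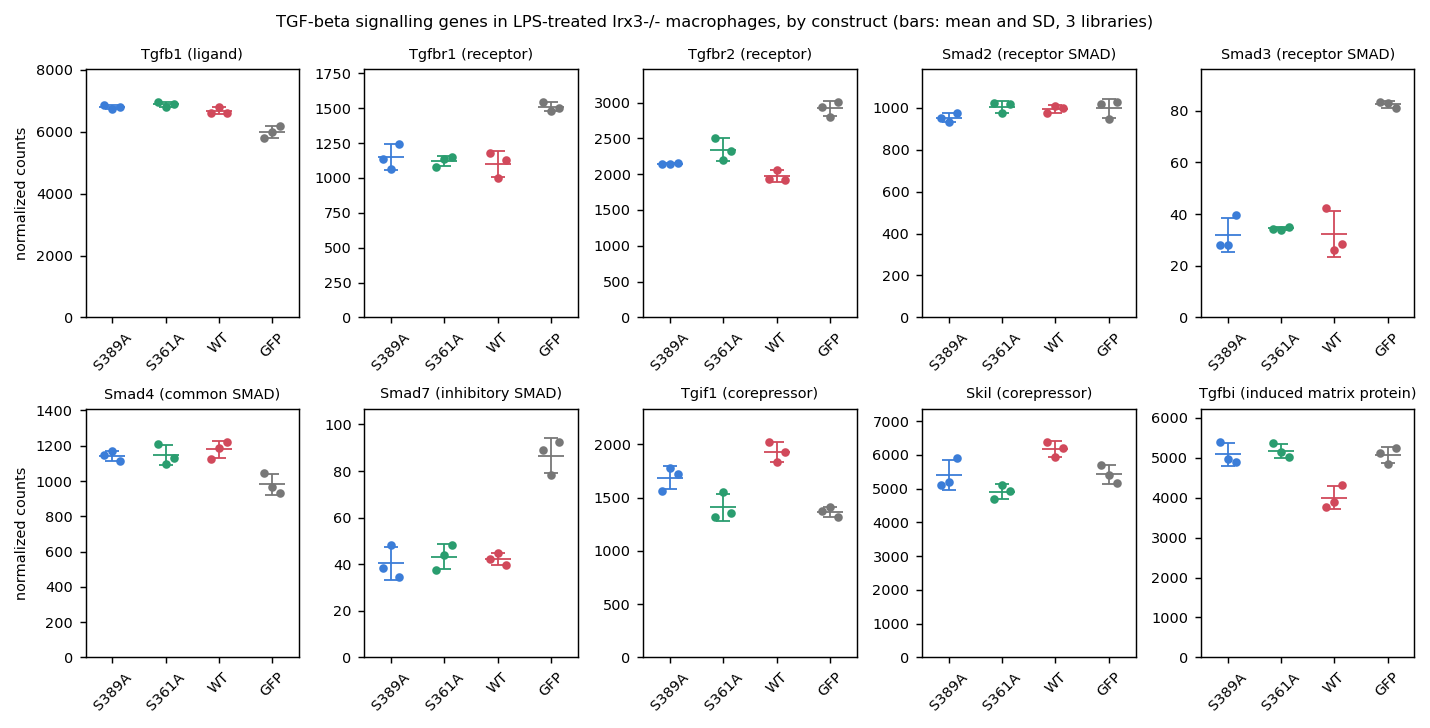
Normalized counts of each of the 10 genes in each of the 12 libraries (points) with mean and SD of the 3 libraries of a construct (bars); each panel has its own axis from 0. Tgfbr1, Tgfbr2, Smad3 and Smad7 stand apart in GFP cells, where they are higher, Tgfbi stands apart in IRX3_WT cells, where it is lower, and Smad2 is level across constructs.

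The receptor-activated SMADs, which carry the signal to the nucleus, differed in their behaviour. Smad2 (18:76241580-76310963, plus strand) had 951, 931 and 974 normalized counts in IRX3_S389A libraries, 1024, 973 and 1015 in IRX3_S361A libraries, 975, 1006 and 1000 in IRX3_WT libraries, and 1017, 946 and 1028 in GFP libraries. Its groups overlapped in all comparisons but IRX3_S389A with IRX3_WT, and its group means ran only from 952 to 1004. Smad2 passed in none of the 6 comparisons (lowest limma adjusted p = 0.384), nor in the test of any difference among the groups (0.600), with 95% intervals of the log2 differences inside -0.19 to 0.13. With equal totals it was called lower with IRX3_S389A (-0.24) and IRX3_WT (-0.18), close to the median of all genes there.

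Smad3 (9:63646767-63757994, minus strand), a SMAD that binds the SMAD box directly, had 27.9, 28.2 and 39.6 normalized counts in IRX3_S389A libraries, 34.4, 33.8 and 35.2 in IRX3_S361A libraries, 42.3, 26.0 and 28.4 in IRX3_WT libraries, and 83.5, 82.9 and 81.0 in GFP libraries. The highest of the IRX3 libraries (42.3) was far below the lowest GFP library (81.0). Smad3 fell against GFP, with log2 differences of -1.36, -1.24 and -1.36 with IRX3_S389A, IRX3_S361A and IRX3_WT (SE 0.23 each; limma adjusted p = 7.67e-06, 5.40e-05 and 6.90e-06), the largest fall of the 10 members in each of these comparisons, leaving 0.387 to 0.418 of the GFP mean. Between IRX3 constructs it did not pass, and the 95% intervals, inside -0.59 to 0.59, are wide. The ratio of Smad2 to Smad3 per kb was 19.3 ± 3.3, 18.4 ± 0.34 and 20.4 ± 5.2 in IRX3_S389A, IRX3_S361A and IRX3_WT libraries and 7.63 ± 0.41 in GFP libraries (SD, n = 3 each), again without overlap between GFP and the rest.

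Smad4 (18:73639009-73703780, minus strand), the partner that both share, had 1148, 1170 and 1113 normalized counts in IRX3_S389A libraries, 1212, 1098 and 1131 in IRX3_S361A libraries, 1126, 1188 and 1223 in IRX3_WT libraries, and 1045, 969 and 931 in GFP libraries. It rose by 0.22, 0.23 and 0.27 on the log2 scale against GFP (SE 0.056 each; limma adjusted p = 0.00183, 0.00215 and 0.000203), and the IRX3 groups overlapped. With equal totals the differences were 0.052, 0.11 and 0.089 and none passed (adjusted p = 0.464, 0.135 and 0.195). The ratio of Smad4 to Smad2 counts in a library was 1.20 ± 0.057, 1.14 ± 0.036 and 1.19 ± 0.034 in the IRX3 groups in the same order and 0.985 ± 0.070 in GFP libraries, which did not overlap the others.

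Smad7 (18:75367529-75395935, plus strand), the inhibitor that blocks the receptor and is itself a known target of the pathway, had 38.2, 48.3 and 34.6 normalized counts in IRX3_S389A libraries, 37.5, 43.7 and 48.2 in IRX3_S361A libraries, 42.3, 44.7 and 39.8 in IRX3_WT libraries, and 89.1, 78.3 and 92.6 in GFP libraries. Again all 9 IRX3 libraries lay below all 3 GFP libraries. The log2 differences from GFP were -1.09, -0.99 and -1.02 with IRX3_S389A, IRX3_S361A and IRX3_WT (SE 0.20 each; limma adjusted p = 3.81e-05, 0.000214 and 9.50e-05), and the means were 0.466, 0.498 and 0.488 of the GFP mean. The IRX3 groups overlapped, and their differences did not pass, at -0.10 for IRX3_S389A against IRX3_S361A, -0.077 for IRX3_S389A against IRX3_WT and 0.023 for IRX3_S361A against IRX3_WT, with 95% intervals inside -0.51 to 0.44. Smad7 and Smad3, the rarest transcripts of the 10, thus showed the largest falls against GFP. The falls of Tgfbr1, Tgfbr2, Smad3 and Smad7 against GFP passed with all 3 constructs under each alternative tried, the highest adjusted p being 0.0133 (Tgfbr2, IRX3_S361A).

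**Figure D3:**
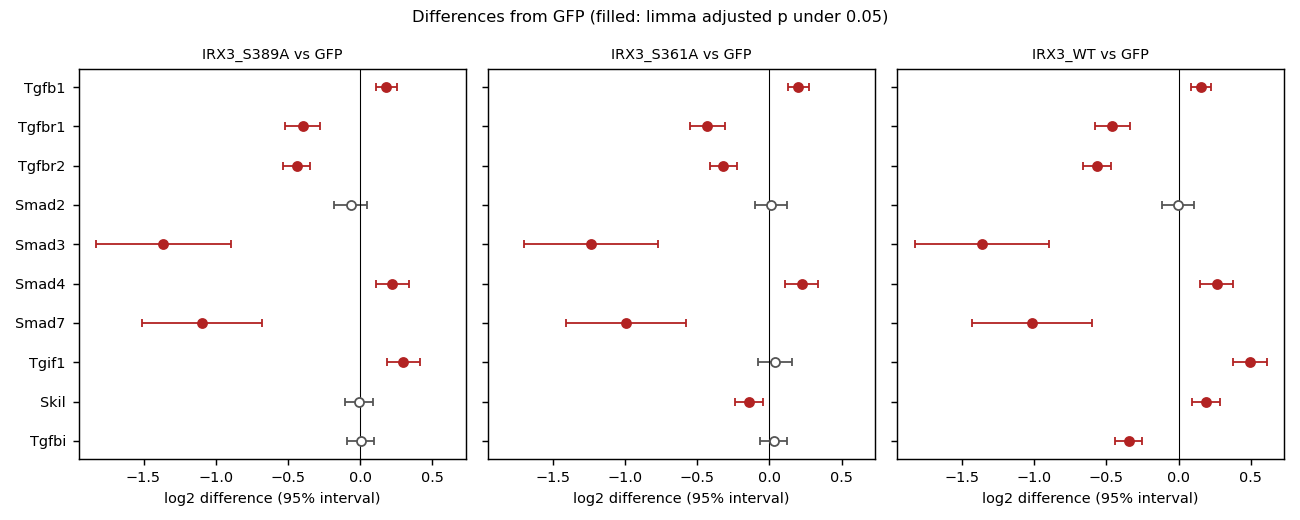
Log2 difference from GFP (x axis) of each gene with IRX3_S389A, IRX3_S361A and IRX3_WT, with 95% intervals; filled red points passed the limma test. Tgfbr1, Tgfbr2, Smad3 and Smad7 lie to the left of 0 in all 3 panels, and Tgfbi to the left of 0 in the IRX3_WT panel, at -0.34.

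Tgif1, Skil and Tgfbi were called for both mutant constructs against IRX3_WT, and Tgif1 also between the mutants. Tgif1 (17:70844205-70853546, minus strand), a homeobox corepressor of SMAD2 and SMAD3, had 1565, 1774 and 1716 normalized counts in IRX3_S389A libraries, 1317, 1554 and 1356 in IRX3_S361A libraries, 2024, 1831 and 1928 in IRX3_WT libraries, and 1372, 1412 and 1319 in GFP libraries. IRX3_WT libraries were the highest without overlap, IRX3_S389A libraries came next and were all above the remaining groups, and IRX3_S361A and GFP libraries overlapped. Against GFP, Tgif1 rose by 0.30 with IRX3_S389A (limma adjusted p = 6.29e-05) and by 0.49 with IRX3_WT (5.95e-09), and the difference with IRX3_S361A was 0.040 (0.677; 95% interval -0.077 to 0.16). All 3 differences between IRX3 constructs passed: 0.26 for IRX3_S389A against IRX3_S361A (adjusted p = 0.00176), -0.19 for IRX3_S389A against IRX3_WT (0.0167) and -0.45 for IRX3_S361A against IRX3_WT (2.21e-07), with an SE of 0.057 each. Tgif1 was the only member called between the mutant constructs. Its difference between IRX3_S389A and IRX3_WT did not pass without IRX3_S389A replicate 1 (adjusted p = 0.153), IRX3_WT replicate 1 (0.106) or IRX3_WT replicate 3 (0.0504). With equal totals the rise with IRX3_S389A over GFP was 0.13 (0.0542).

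Skil (3:31095058-31122577, plus strand), whose product SnoN sits on SMAD-bound promoters, had 5116, 5195 and 5904 normalized counts in IRX3_S389A libraries, 4692, 5116 and 4931 in IRX3_S361A libraries, 6395, 5934 and 6219 in IRX3_WT libraries, and 5712, 5398 and 5156 in GFP libraries. IRX3_WT libraries were the highest and IRX3_S361A libraries were below both IRX3_WT and GFP libraries, while IRX3_S389A libraries overlapped the GFP and IRX3_S361A ranges. Skil fell against IRX3_WT, with log2 differences of -0.20 with IRX3_S389A and -0.33 with IRX3_S361A (SE 0.048 each; limma adjusted p = 0.00511 and 9.37e-06). Against GFP it differed by -0.0063 with IRX3_S389A (0.940), fell by 0.14 with IRX3_S361A (0.0292) and rose by 0.19 with IRX3_WT (0.00217). The call with IRX3_S361A was lost without GFP replicate 1 (adjusted p = 0.168), GFP replicate 2 (0.0724), IRX3_S361A replicate 1 (0.142) or IRX3_S361A replicate 3 (0.0656). With equal totals the rise with IRX3_WT over GFP was 0.013 (0.843), and IRX3_S389A was called lower than GFP, at -0.18 (0.00464). IRX3_S389A differed from IRX3_S361A by 0.14 (0.0743), which passed without IRX3_S389A replicate 1 (0.0308).

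Tgfbi (13:56609523-56639562, plus strand), the secreted matrix protein that binds integrins and collagens, had 5404, 4969 and 4882 normalized counts in IRX3_S389A libraries, 5368, 5152 and 5021 in IRX3_S361A libraries, 3770, 3899 and 4316 in IRX3_WT libraries, and 5110, 4852 and 5241 in GFP libraries. All 3 IRX3_WT libraries were below the other 9, which overlapped. Tgfbi rose by 0.35 with IRX3_S389A and by 0.38 with IRX3_S361A against IRX3_WT (SE 0.046 each; limma adjusted p = 9.01e-07 and 1.50e-07). Against GFP it differed by 0.0042 with IRX3_S389A (0.958) and by 0.032 with IRX3_S361A (0.677), and it fell by 0.34 with IRX3_WT (1.38e-07), to 0.788 of the GFP mean. With equal totals, IRX3_S389A was called lower than GFP, at -0.17 (0.00536), near the median of all genes in that fit, and the other calls held. Pdgfrb, the stromal marker with the highest level, was highest in IRX3_WT cells, where Tgfbi was lowest, with means of 167, 123, 225 and 84.6 normalized counts in IRX3_S389A, IRX3_S361A, IRX3_WT and GFP cells. The rest of the stromal list, with means up to 15.0, did not share this pattern as a set. Col1a1, Col1a2 and Postn were lowest in IRX3_WT cells (means of 4.90, 6.29 and 7.47). Col3a1, Dcn and Lum were not highest there, and Pdgfra was, at 2.09. The part of Pdgfrb in the Tgfbi result was not tested.

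**Figure D4:**
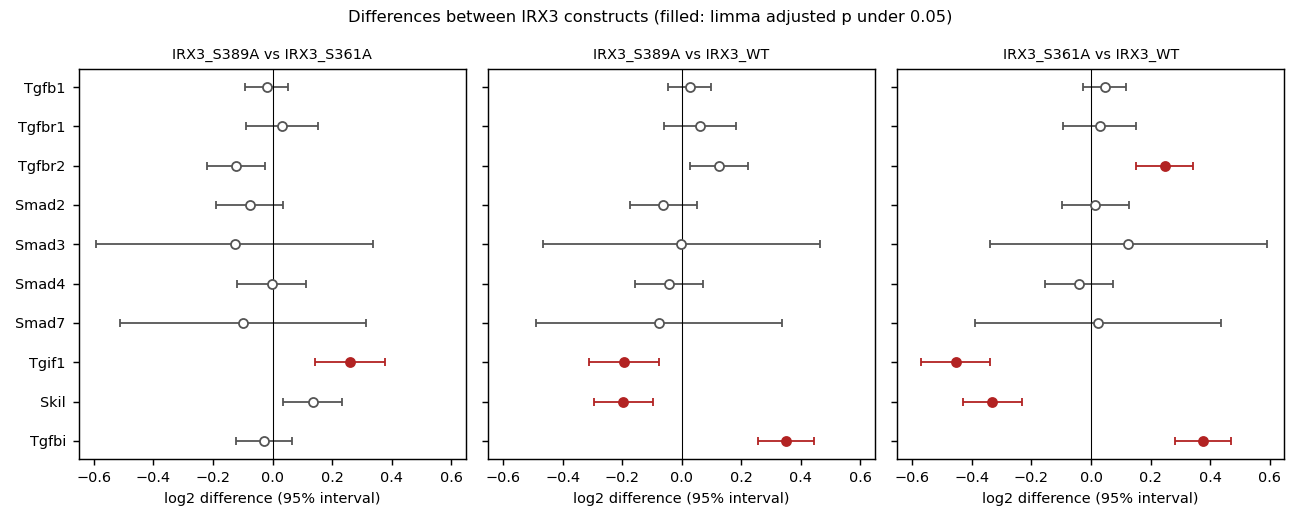
Log2 differences (x axis) between IRX3 constructs, IRX3_S389A against IRX3_S361A, IRX3_S389A against IRX3_WT and IRX3_S361A against IRX3_WT, with 95% intervals; filled red points passed the limma test. Tgif1 and Skil lie left of 0 and Tgfbi right of 0 in both panels against IRX3_WT, and Tgif1 alone is filled in the panel between the mutants, at 0.26.

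Other genes of the pathway were followed in 8 lists of 108 genes in all, of which 89 were tested. Of these, 52 passed against GFP with IRX3_S389A (33 higher, 19 lower), 42 with IRX3_S361A (25 higher, 17 lower) and 53 with IRX3_WT (37 higher, 16 lower). Among IRX3 constructs, 15 passed for IRX3_S389A against IRX3_S361A (9 higher, 6 lower), 25 for IRX3_S389A against IRX3_WT (4 higher, 21 lower) and 26 for IRX3_S361A against IRX3_WT (3 higher, 23 lower). These are 16.9%, 28.1% and 29.2% of the 89, beside 10.2%, 15.3% and 15.5% of all tested genes. The median log2 differences of the 89 genes against GFP were 0.13, 0.10 and 0.13, beside -0.0061, 0.0041 and -0.0055 over all tested genes. The list counts below stand beside the 35.0%, 25.9% and 39.6% of all tested genes that passed in these comparisons, and nothing particular to a list was tested. The split of directions depends on the scaling. With equal totals the calls against GFP were 15 higher and 33 lower, 14 higher and 22 lower, and 20 higher and 27 lower, and those between constructs were 6 higher and 14 lower, 4 higher and 21 lower, and 9 higher and 16 lower, in the same order of comparisons. Over all tested genes, equal totals called 1334 higher and 5397 lower, 1047 and 3226, and 1395 and 5519 against GFP. Between constructs they called 597 higher and 1053 lower, 1171 and 874, and 1805 and 754. The equal-total counts of each list below stand beside these.

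Upstream of the receptors, the 9 tested genes that hold or release latent TGF-beta all passed with IRX3_WT against GFP (7 higher, 2 lower). Compared with IRX3_WT, 5 of them were called lower with each mutant, and 1, Nrros, was called higher with IRX3_S389A. Against GFP, 9 passed with IRX3_S389A (7 higher, 2 lower) and 6 with IRX3_S361A (4 higher, 2 lower). With equal totals the splits against GFP were 4 higher and 2 lower with IRX3_S389A, 3 and 2 with IRX3_S361A, and 6 and 2 with IRX3_WT. Against IRX3_WT, equal totals gave 1 higher and 5 lower with IRX3_S389A, and 0 and 4 with IRX3_S361A. Of all tested genes as deposited, 7.08% and 9.07% were called lower with these mutants than with IRX3_WT, and 8.21% and 6.43% higher. Itgb8, whose integrin releases the ligand from its latent complex, averaged 1369 ± 72.0 normalized counts in IRX3_S389A cells, 901 ± 38.5 in IRX3_S361A cells, 2299.5 ± 60.6 in IRX3_WT cells and 631 ± 10.3 in GFP cells (SD, n = 3 each). Its 4 groups did not overlap, and its log2 differences were 1.11, 0.51 and 1.86 against GFP with IRX3_S389A, IRX3_S361A and IRX3_WT, -0.75 and -1.35 against IRX3_WT with IRX3_S389A and IRX3_S361A, and 0.60 between the mutants, all past the threshold (highest limma adjusted p = 9.62e-10). Thbs1, thrombospondin, which also activates the latent form, averaged 123 ± 4.00 normalized counts in IRX3_S389A cells, 102 ± 23.1 in IRX3_S361A cells, 195 ± 34.4 in IRX3_WT cells and 59.9 ± 5.03 in GFP cells. It rose by 1.03, 0.73 and 1.67 against GFP and fell against IRX3_WT (log2 differences -0.64 and -0.94), in the same order. Mmp14, a membrane protease that can release latent TGF-beta, averaged 23374 ± 118 normalized counts in IRX3_S389A cells, 21967 ± 480.1 in IRX3_S361A cells, 26086 ± 186 in IRX3_WT cells and 15851 ± 239.8 in GFP cells, and rose by 0.56, 0.47 and 0.72 against GFP. Nrros, which tethers latent TGF-beta on macrophages and microglia, went the other way. It averaged 1557 ± 70.0 normalized counts in IRX3_S389A cells, 1252 ± 100.0 in IRX3_S361A cells, 1279 ± 27.7 in IRX3_WT cells and 1833 ± 63.5 in GFP cells, and fell against GFP (log2 differences -0.24, -0.55 and -0.52). With IRX3_S389A it was higher than with IRX3_WT, by 0.28 (limma adjusted p = 0.000194), and than with IRX3_S361A, by 0.32 (5.64e-05).

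Among other ligands, Inhba, which encodes the activin A subunit, averaged 411 ± 20.2 normalized counts in IRX3_S389A cells, 389.7 ± 62.7 in IRX3_S361A cells, 657 ± 66.0 in IRX3_WT cells and 207 ± 7.85 in GFP cells, a rise of 0.99, 0.90 and 1.66 against GFP. Tgfb3 had group means of 8.02 to 15.0 normalized counts and did not pass in any comparison. Among the other receptors and co-receptors, 11 of 12 were tested, and 7, 4 and 5 passed against GFP with IRX3_S389A (6 higher, 1 lower), IRX3_S361A (3 higher, 1 lower) and IRX3_WT (3 higher, 2 lower). With equal totals these were 1 higher and 1 lower, 2 and 1, and 2 and 3. Eng, the co-receptor endoglin, rose by 0.42, 0.37 and 0.46, and Tgfbrap1, a receptor-associated protein, fell against GFP (log2 differences -0.36, -0.32 and -0.38). Cd109, a co-receptor that promotes receptor degradation, was higher with IRX3_S389A and IRX3_S361A than with IRX3_WT, by 0.55 and 0.40.

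In the BMP branch, which uses other SMADs and induces the Id genes, 9 of 13 genes were tested and 6, 4 and 4 passed against GFP (1 higher and 5 lower, 0 and 4, 2 and 2). With equal totals these were 0 higher and 5 lower, 0 and 4, and 1 and 5. Id1 averaged 227 ± 10.4 normalized counts in IRX3_S389A cells, 319.7 ± 22.7 in IRX3_S361A cells, 392 ± 14.6 in IRX3_WT cells and 583 ± 25.5 in GFP cells. Its groups did not overlap, and it fell against GFP (log2 differences -1.36, -0.87 and -0.57). Id2 and Id3 fell with IRX3_S389A and IRX3_S361A against IRX3_WT, Id2 with log2 differences of -0.38 and -0.44 and Id3 of -0.33 and -0.26. Smad6, the inhibitory SMAD of that branch, averaged 56.3 ± 8.68 normalized counts in IRX3_S389A cells, 90.7 ± 15.6 in IRX3_S361A cells, 91.8 ± 23.9 in IRX3_WT cells and 145 ± 19.2 in GFP cells. With IRX3_S389A it fell against IRX3_S361A (log2 difference -0.68) and against IRX3_WT (-0.68).

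Of the 20 tested SMAD anchors, ubiquitin ligases and phosphatases, 6, 6 and 9 passed against GFP (4 higher and 2 lower, 5 and 1, 7 and 2). These are 30%, 30% and 45%, near the shares of all tested genes. With equal totals the split was 1 higher and 8 lower, 1 and 3, and 2 and 7. Wwp1, a ubiquitin ligase that can act with SMAD7 on the receptor, fell against GFP (log2 differences -0.44, -0.39 and -0.54). Of the 13 tested nuclear partners, 9, 5 and 7 passed (5 higher and 4 lower, 3 and 2, 4 and 3), and with equal totals the split was 1 higher and 6 lower, 0 and 5, and 0 and 5. Ski, the corepressor most closely related to Skil, averaged 551 ± 43.3 normalized counts in IRX3_S389A cells, 649 ± 52.1 in IRX3_S361A cells, 568 ± 31.2 in IRX3_WT cells and 1019 ± 25.5 in GFP cells, and fell against GFP (log2 differences -0.89, -0.65 and -0.84).

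The 16 tested genes known to be switched by TGF-beta, most of them also under other controls, did not move one way: 10, 12 and 10 passed against GFP (6 higher and 4 lower, 6 and 6, 6 and 4). Cdkn1a, a cell-cycle inhibitor gene, rose by 0.61, 0.38 and 0.68 against GFP, and Junb, which encodes an AP-1 subunit, by 0.45, 0.35 and 0.61. Exons of another annotated gene cover 7.68% of Cdkn1a and 7.52% of Junb exon bases, and none of the 10 members' exon bases. Myc, which TGF-beta represses in many cells, fell against GFP (log2 differences -1.10, -0.74 and -0.94). Cx3cr1, a chemokine receptor gene of resident macrophages, averaged 620.3 ± 34.5 normalized counts in IRX3_S389A cells, 539 ± 13.2 in IRX3_S361A cells, 898 ± 68.3 in IRX3_WT cells and 1131 ± 35.4 in GFP cells, and fell (log2 differences -0.53 and -0.73) with IRX3_S389A and IRX3_S361A against IRX3_WT. All 5 targets called for IRX3_S389A against IRX3_WT, and all 7 called for IRX3_S361A against IRX3_WT, were lower in the mutant. Of all tested genes, 8.21% were called higher and 7.08% lower in the first comparison, and 6.43% and 9.07% in the second. With equal totals the targets split 0 higher and 5 lower, and 1 higher and 7 lower. In the branch that runs without SMADs, 4, 4 and 8 of 9 passed against GFP (3 higher and 1 lower, 3 and 1, 7 and 1), and with equal totals the split was 1 higher and 5 lower, 1 and 1, and 2 and 1. Tab2, an adaptor of the kinase TAK1, rose by 0.46, 0.39 and 0.54, and Tab1, another, fell against GFP (log2 differences -0.62, -0.41 and -0.75).

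**Figure D5:**
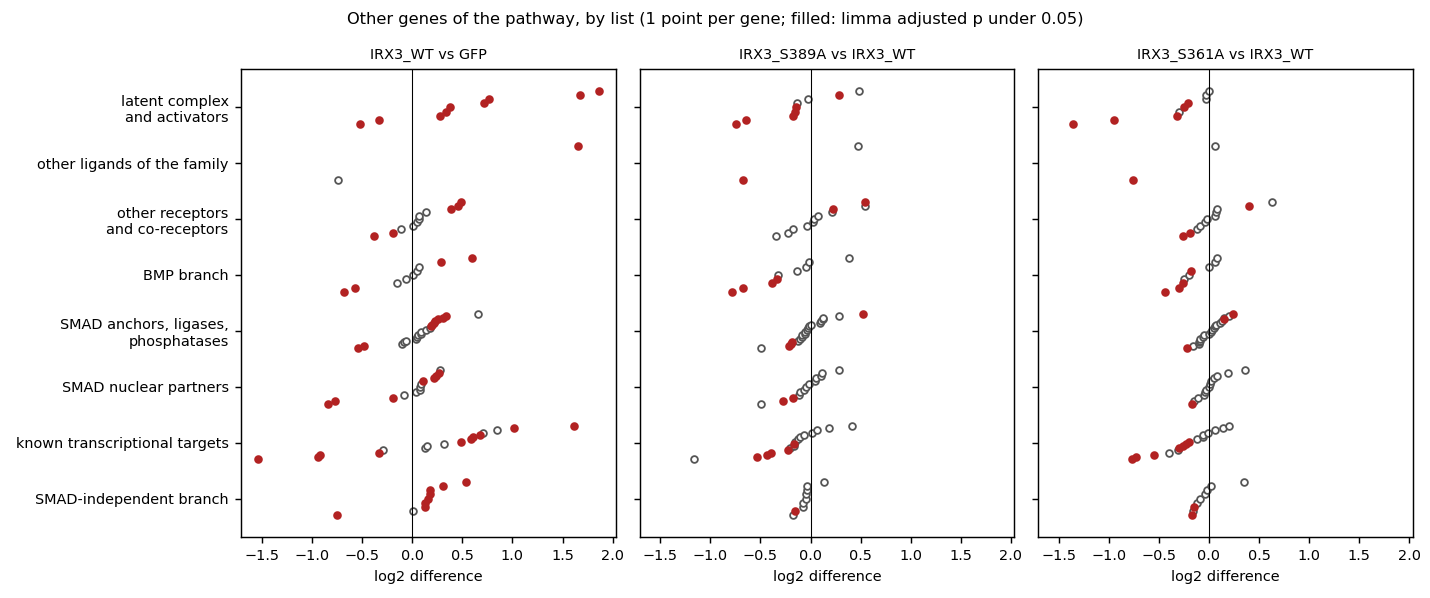
Log2 differences (x axis) of the 89 other pathway genes in 8 lists, for IRX3_WT against GFP, IRX3_S389A against IRX3_WT and IRX3_S361A against IRX3_WT; each point is a gene, and filled red points passed the limma test. In the panels against IRX3_WT most filled points lie left of 0 (21 of 25 and 23 of 26). Over all tested genes the calls were 1097 higher and 946 lower, and 859 and 1212. With equal totals the pathway genes split 4 higher and 21 lower, and 9 higher and 16 lower. All tested genes then split 1171 higher and 874 lower, and 1805 and 754.

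For each of the 9 members called in the test over all groups, the 3 genes most like it over the 12 libraries were found by Pearson's r of log2 values among 8742 genes with a mean of at least 100 normalized counts. The points share 4 group means and 1 scaling per library, so r mainly describes the pattern of those means. Nearest to Tgfbr2 were Zdhhc14 (0.99), Mcm3 (0.98) and Mcm2 (0.98), and Mcm3 averaged 1450 in IRX3_S389A cells, 1600 in IRX3_S361A cells, 1352 in IRX3_WT cells and 1927 in GFP cells. Nearest to Tgfbr1 were Acsl3 (0.98), Zfp652 (0.98) and Atad2 (0.96), and nearest to Smad3 were Rrp1b (0.98), Atad2 (0.98) and Hells (0.97). Smad7 was closest to Cep250 (0.97), Lfng (0.97) and Arhgap45 (0.97), of which Lfng, a Notch-modifying enzyme, averaged 115, 139, 125 and 566 in the same order of groups. Tgfb1 was closest to Hcar2 (0.97), Mmp9 (0.96) and Optn (0.96), and Smad4 to H2-Q4 (0.95), Znrf1 (0.94) and Zfand5 (0.94). Tgif1 was closest to Lims1 (0.98), Ptgir (0.96) and Ero1l (0.95), Skil to Snrpb2 (0.95), Eif2s2 (0.94) and Rab6a (0.94), and Tgfbi to Smarcb1 (0.98), Impdh1 (0.95) and Lmna (0.95). Lmna, the nuclear lamin A gene, averaged 6417 in IRX3_S389A cells, 6261 in IRX3_S361A cells, 5000.0 in IRX3_WT cells and 6204 in GFP cells.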

How the data were processed

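RNA of 12 libraries was sequenced. The submitters' processing notes name Trimmomatic with no version, HISAT2 2.1.0, StringTie 1.3.5 and the genome mm10. They do not say how reads were counted, with which strand setting or annotation release, or what gave the size factors. The deposited signal of each gene is a count divided by 1 size factor per library by the authors, although the table is called raw counts: 100% of the values in a column are multiples of the worth of 1 read (tolerance 1e-06). One read is worth 0.890 to 1.14 units, and recovered reads ran from 17149058 to 20108002. In 3 columns that worth lies within 1% of 1, so whole reads are claimed for 9 libraries. A floor of 3 reads is 2.67 to 3.41 units and covers counting error only.

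GENCODE M21 (GRCm38) held 98.1% of the gene IDs in the same version and 99.5% without it. Limma 3.58.1 in R 4.3.3 (trend and robust settings) was fitted to log2(value + 1) of 13369 genes, 12 libraries in 1 fit with 8 residual degrees of freedom, which is the test planned for counts divided by size factors. P-values were adjusted by Benjamini-Hochberg over all these genes, and calls have an adjusted p under 0.05. Because 1 is added before the log, changes of low genes are understated. The alternatives were a pseudocount of 5, no filter, equal total counts, edgeR 4.0.16 with TMM and DESeq2 1.42.0 on recovered reads, a replicate block, only the groups compared, and each library left out. One more, edgeR on the 9 libraries, was chosen after seeing the data. It holds 2 IRX3_S389A libraries and 1 IRX3_S361A library. The fits were tested on simulated data. Libraries of a group differed by 2.73 to 5.11 chi-square per degree of freedom, more than counting noise gives between copies of 1 library. This does not show that they came from separate mice or cultures.

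Named genes are the 10 members, genes from each list that were among its 5 with the smallest p over the 4 groups, the 3 genes most like each member called over the groups, Irx3 and the cell type markers. The members and lists were chosen with earlier results of these data known, so they are no independent evidence. One gene of the lists is counted with its list but not reported here by name.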

Additional observations from a re-analysis of the deposited data

How the results depend on the processing

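Of 1200 recomputed member differences (60 values), 1137 had the same direction and side of the threshold and 41 changed sign. Of those that kept their sign, 13 lost and 9 gained the call. Among the 41, with equal totals against GFP, Tgfb1 with IRX3_WT also lost its call and Tgfbi with IRX3_S389A gained one. Members called for IRX3_S389A against IRX3_S361A were 2 with equal total counts (Tgfbr2 and Tgif1) and 1 to 2 with a library left out, beside 1. Signs changed with equal total counts for IRX3_WT against GFP in Tgfb1 (-0.021), for IRX3_S361A against GFP in Smad2 (-0.10), Tgif1 (-0.074) and Tgfbi (-0.082), for IRX3_S389A against GFP in Tgfbi (-0.17), for IRX3_S389A against IRX3_S361A in Tgfbr1 (-0.025), for IRX3_S389A against IRX3_WT in Smad3 (0.0051) and for IRX3_S361A against IRX3_WT in Smad4 (0.023). With edgeR the sign of Tgfbi changed for IRX3_S389A against GFP (-0.011). With edgeR on the 9 libraries, where IRX3_S361A is 1 library (replicate 1) assumed to vary like the others and IRX3_S389A is 2, it changed for IRX3_S361A against IRX3_WT in Tgfbr1 (-0.028), Smad4 (0.039) and Smad7 (-0.18), for IRX3_S389A against IRX3_WT in Smad3 (0.053), for IRX3_S361A against GFP in Tgif1 (-0.065) and for IRX3_S389A against GFP in Skil (0.0086). Except for Tgfb1 with IRX3_WT, these were differences that had not passed, and the causes were not tested.

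With a library left out, signs changed within these ranges, all of differences that had not passed. For IRX3_S361A against IRX3_WT they were -0.040 to 0.080 in Tgfbr1, -0.011 to 0.33 in Smad3 and -0.060 to 0.12 in Smad7. For IRX3_S389A against IRX3_WT they were -0.0091 to 0.11 in Tgfbr1, -0.16 to 0.21 in Smad3 and -0.21 to 0.025 in Smad7. For IRX3_S389A against IRX3_S361A they were -0.030 to 0.085 in Tgfbr1, -0.034 to 0.037 in Smad4, -0.23 to 0.0020 in Smad7 and -0.072 to 0.00098 in Tgfbi. Against GFP they were -0.042 to 0.019 in Smad2 with IRX3_WT, -0.027 to 0.034 in Smad2 and -0.033 to 0.087 in Tgif1 with IRX3_S361A, and -0.072 to 0.032 in Skil and -0.040 to 0.033 in Tgfbi with IRX3_S389A.

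Over all genes, equal total counts gave 1334 higher and 5397 lower for IRX3_S389A against GFP (2516 and 2160 as deposited), 1047 and 3226 for IRX3_S361A (1996 and 1461) and 1395 and 5519 for IRX3_WT (2805 and 2483). They gave 597 and 1053 for IRX3_S389A against IRX3_S361A (936 and 423), 1171 and 874 for IRX3_S389A against IRX3_WT (1097 and 946), and 1805 and 754 for IRX3_S361A against IRX3_WT (859 and 1212). EdgeR on the 9 libraries, with that single IRX3_S361A library, called 2254 genes for IRX3_S361A against GFP (3516 with edgeR on all 12, 3457 with limma), 1373 for IRX3_S361A against IRX3_WT (2058 and 2071) and 428 for IRX3_S389A against IRX3_S361A (1347 and 1359). Limma without IRX3_S361A replicate 3 called 904 for the last of these. With the replicate block the members called were again 7, 7 and 9 against GFP with IRX3_S389A, IRX3_S361A and IRX3_WT and 1, 3 and 4 between constructs. Residuals of libraries with the same number correlated at -0.041 to 0.0297 and those of other numbers at -0.0447 to 0.0471, so the numbers were not taken as pairs. Smad3 and Smad7 rest on few reads, which limits what their differences between constructs can show.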
